A study of Mus musculus with 6 samples.

Results

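Fatty acid handling in a cell begins with synthesis from acetyl-CoA, continues with lengthening and desaturation, and ends with storage as triglyceride or with oxidation in mitochondria. The genes described here are 43 genes of that pathway, measured in primary mouse cardiac fibroblasts, connective tissue cells that lay down the matrix of the heart. They were chosen by gene symbol, by a rule that uses no measured value, but with earlier results of these data known. All 43 had a row among the 18059 genes of the deposited tables. All 43 also passed the filter on low counts that left 13270 genes for testing. By role they were divided into 5 genes of de novo synthesis, 8 of desaturation and elongation, 4 of fatty acid activation, 8 of glycerolipid synthesis and storage, 3 of lipolysis, 5 of uptake and binding, 7 of beta-oxidation and 3 PPAR nuclear receptors.

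Fatty acid synthase and acetyl-CoA carboxylase build saturated chains in the cytosol. Elongases and desaturases of the endoplasmic reticulum then remodel these chains and those taken up from the medium. Acyl-CoA synthetases activate fatty acids, acyltransferases and diacylglycerol acyltransferases place them in triglyceride, perilipins coat the resulting lipid droplets, and a series of lipases releases the fatty acids again. Carnitine palmitoyltransferases carry them into mitochondria for oxidation, the main energy source of the adult heart muscle cell, while SREBP factors and PPAR receptors are known regulators of the genes of both arms.

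Cells of the PDGF-DD group were exposed for 12 hours, at a dose that the labels give as 20 µM, and the control group received saline (n = 3 libraries each). PDGF-DD, a dimer of platelet-derived growth factor D in its active form, signals mainly through the receptor PDGFRβ. All cells came from hearts of C57BL/6 mice aged 1 to 2 weeks, passed a 70 µm filter after digestion and grew in medium with 15% serum. The protocols describe every culture as derived from mice lacking PDGF-D globally, whereas the genotype entries read PDGF-D -/- for the PDGF-DD samples and control for the saline samples, so a difference in genotype and the treatment cannot be told apart from the labels alone. A dose in µM is high for a growth factor, and the unit is doubtful. Separate cultures or animals within a group are not stated in the labels, so the p-values reflect spread among these libraries, possibly technical spread alone.

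The libraries held between 21221114 and 21371829 estimated counts, and between 15880 and 16026 genes were detected in each. Pdgfd, the gene of the knockout, had 69, 72 and 82 estimated counts in the PDGF-DD libraries and 118, 114 and 91 in the control libraries. Its transcript was thus counted in both groups, with a log2 fold change of -0.55 (adjusted p = 0.00245 in edgeR), and the tables do not show which exons the counts came from. A chi-square of counts per degree of freedom lay between 1.90 and 2.74 for pairs of PDGF-DD libraries and at 2.48 for control replicates 2 and 3, but at 5.11 and 5.71 for the pairs with control replicate 1, which therefore stood apart. Fibroblast markers dominated, with a summed level of 18530 to 18841 TPM for 10 genes in the PDGF-DD libraries and 20109 to 22055 TPM in the control libraries (TPM is a level scaled per transcript length and library), with 6 of the 10 lower and 1 higher by the test described below. In these bulk libraries fewer cells of a type and less RNA per cell cannot be told apart.

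Promoter windows are shown for members whose results are described below, 250 bases before to 50 after the start site, from RefSeq on GRCm38.p6. Windows were found for 35 of the 43 members, 42 windows in all, and capitals mark matches to CCAAT or AGGTCA on either strand. Fasn and Cpt1a were chosen because they differed in opposite directions, Fads3 and Fads2 because they are neighbours that were both lower, Plin4 for the largest fold change, and Hadhb for near-equal values in the groups.
Fasn (chr11:120824498-120824797, minus strand): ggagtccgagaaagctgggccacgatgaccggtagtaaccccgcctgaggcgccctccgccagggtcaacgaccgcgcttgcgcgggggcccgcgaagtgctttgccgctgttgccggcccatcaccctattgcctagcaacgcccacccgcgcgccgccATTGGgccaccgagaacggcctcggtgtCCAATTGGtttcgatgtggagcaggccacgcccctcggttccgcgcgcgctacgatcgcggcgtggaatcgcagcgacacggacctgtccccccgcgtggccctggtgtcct
Fads3 (chr19:10041298-10041597, plus strand): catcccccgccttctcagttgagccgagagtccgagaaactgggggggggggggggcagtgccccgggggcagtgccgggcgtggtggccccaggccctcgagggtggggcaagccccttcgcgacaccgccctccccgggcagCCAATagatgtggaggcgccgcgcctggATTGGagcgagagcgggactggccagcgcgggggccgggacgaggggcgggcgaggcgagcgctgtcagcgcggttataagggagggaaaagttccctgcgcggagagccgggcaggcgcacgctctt
Fads2 (chr19:10101454-10101753, minus strand): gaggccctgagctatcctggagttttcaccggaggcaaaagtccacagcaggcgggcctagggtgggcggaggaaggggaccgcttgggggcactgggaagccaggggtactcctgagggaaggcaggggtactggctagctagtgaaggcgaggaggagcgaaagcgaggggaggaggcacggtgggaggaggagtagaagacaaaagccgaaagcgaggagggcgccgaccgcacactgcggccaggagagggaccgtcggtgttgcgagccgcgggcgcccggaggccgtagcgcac
Cpt1a (chr19:3323051-3323350, plus strand): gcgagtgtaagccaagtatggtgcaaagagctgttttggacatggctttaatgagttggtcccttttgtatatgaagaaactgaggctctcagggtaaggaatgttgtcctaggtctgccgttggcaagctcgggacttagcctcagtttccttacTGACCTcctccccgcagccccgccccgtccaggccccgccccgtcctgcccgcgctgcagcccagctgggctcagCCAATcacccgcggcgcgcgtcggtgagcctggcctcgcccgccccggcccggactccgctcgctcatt
Plin4 (chr17:56109733-56110032, minus strand): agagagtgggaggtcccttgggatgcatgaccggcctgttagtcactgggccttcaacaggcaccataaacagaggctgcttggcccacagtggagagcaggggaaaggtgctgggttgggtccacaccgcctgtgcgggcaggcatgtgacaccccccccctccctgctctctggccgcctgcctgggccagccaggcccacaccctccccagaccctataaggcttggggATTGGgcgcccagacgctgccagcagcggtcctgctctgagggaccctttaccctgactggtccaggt
Hadhb (chr5:30155003-30155302, plus strand): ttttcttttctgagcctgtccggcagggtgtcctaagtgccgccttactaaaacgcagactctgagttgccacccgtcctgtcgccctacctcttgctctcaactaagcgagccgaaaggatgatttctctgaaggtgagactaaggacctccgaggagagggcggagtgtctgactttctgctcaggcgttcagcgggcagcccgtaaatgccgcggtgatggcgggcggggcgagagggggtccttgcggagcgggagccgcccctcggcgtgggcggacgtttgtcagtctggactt
Fasn held CCAAT or its reverse complement ATTGG beginning 90, 62 and 59 bases upstream of the start site, the last 2 of them overlapping, and Fads3 held one at 106 and one at 78 bases. In Cpt1a a CCAAT began 19 bases and a TGACCT, the reverse complement of AGGTCA, 94 bases upstream. In Plin4 an ATTGG began 18 bases upstream, while Fads2 and Hadhb held none of the letters searched. CCAAT, bound by NF-Y, occurred in 19 of the 42 member windows (45.2%) and in 37.4% of 32851 windows of all genes. AGGTCA, the half-site of nuclear receptors such as the PPARs, occurred in 13 member windows (31%) against 16.3% of all windows. The E-box CACGTG was found in 4 member windows (9.52%), those of Elovl5, Lipe, Mgll and Plin2, against 7.15% of all windows. TCACNCCAC, a form of the sterol response element, was found in 1 member window (2.38%), that of Acsl1, against 1.24%. These are matches of letters and not shown to be bound.

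Of the 43 genes, 4 were higher with PDGF-DD and 16 were lower, while 23 did not pass the test. A gene passed at a Benjamini-Hochberg adjusted p under 0.05 in edgeR's quasi-likelihood test over all 13270 tested genes. Of all tested genes 36.5% passed, 19.1% higher and 17.4% lower with PDGF-DD. Among the members 46.5% passed, 9.3% higher and 37.2% lower. The groups did not overlap for 23 members (53.5%), 4 with all PDGF-DD libraries above and 19 with all below the control libraries, against 47.1% of all tested genes. Most differences were small. The median log2 fold change of the members was -0.08, against -0.01 over all tested genes, and its median size was 0.12, against 0.15. Only Plin4, Lpin1 and Lipe passed the test with a difference of at least 1.5-fold.

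**Figure D1:**
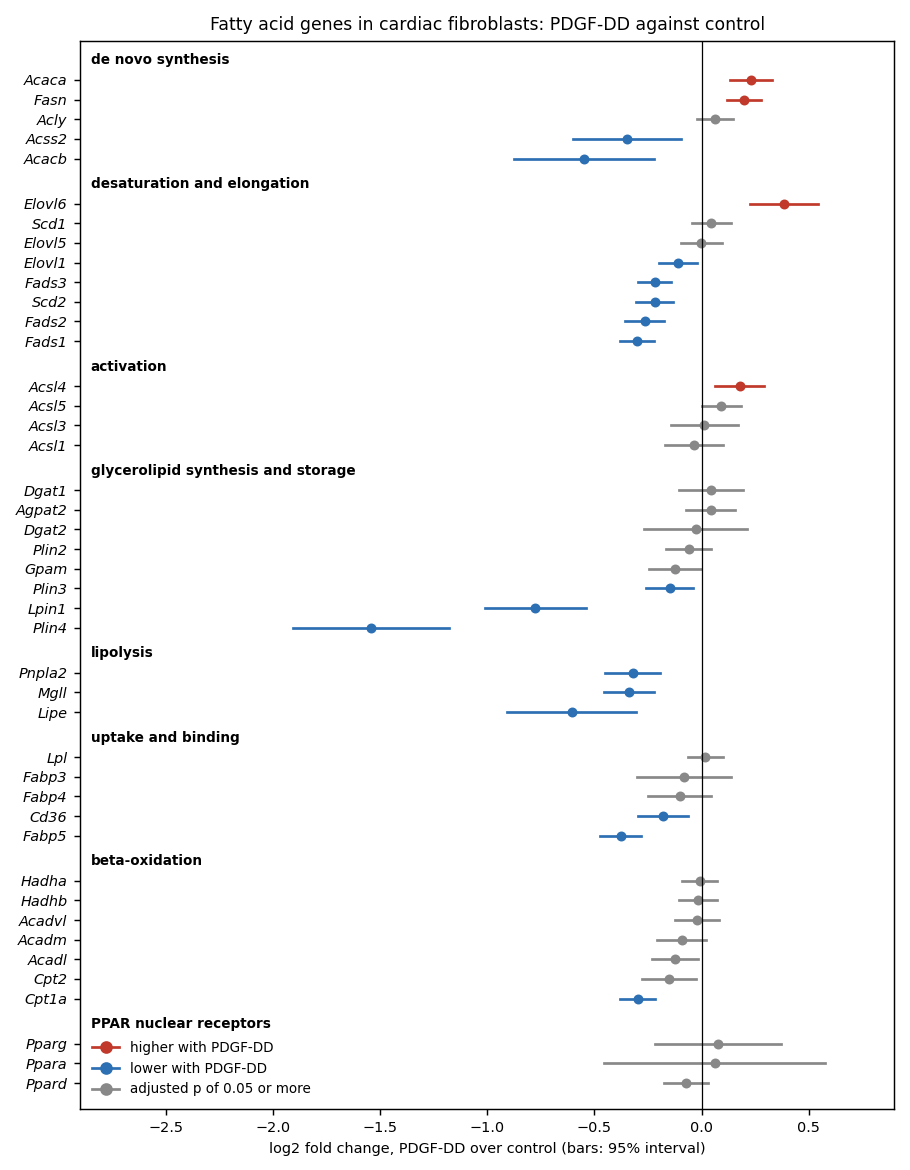
Log2 fold change of PDGF-DD over control for the 43 genes, grouped by role (horizontal axis, log2 scale; points, estimates from edgeR; bars, 95% intervals; red higher, blue lower, grey not passing an adjusted p of 0.05). Fasn, Acaca, Elovl6 and Acsl4 lie to the right, all 3 genes of the lipolysis class lie to the left, and Plin4 lies farthest left at -1.54.

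Of the 5 genes of de novo synthesis, 2 rose with PDGF-DD, 2 fell and 1 did not pass. Acaca and Fasn, which make malonyl-CoA and assemble the chain, rose by 0.23 and 0.20 on the log2 scale, while the low-level genes Acacb and Acss2 fell. Fasn had 222, 221 and 229 CPM (the count scaled to library size with TMM factors) in the PDGF-DD libraries, against 190, 195 and 200 CPM in the control libraries. Every PDGF-DD library thus lay above every control library, with a log2 fold change of 0.20 ± 0.04 (SE; adjusted p = 0.000164). Acaca, the cytosolic carboxylase, had 72.5, 70.7 and 75.0 CPM with PDGF-DD and 58.6, 63.9 and 63.5 CPM in controls, again without overlap (log2 fold change 0.23 ± 0.05 SE; adjusted p = 0.000407). Acaca has a processed pseudogene, Gm5182, that matches 6118 bases at 99.2% identity, so its counts may include reads of that copy. Acly, which supplies cytosolic acetyl-CoA from citrate, was the most abundant gene of the class at 66.9 TPM, and it did not pass the test, with 131 ± 3.28 CPM with PDGF-DD and 125 ± 4.12 CPM in controls (SD, n = 3 each; adjusted p = 0.259).

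The carboxylase of the mitochondrial surface, Acacb, whose malonyl-CoA restrains fatty acid entry, moved the other way from Acaca. It had 2.86, 2.66 and 2.10 CPM in PDGF-DD libraries and 3.96, 3.87 and 3.31 CPM in controls (log2 fold change -0.55 ± 0.16 SE; adjusted p = 0.00799), from 45 to 84 counts per library. The TPM ratio of Acaca to Acacb was 26.4 ± 5.22 with PDGF-DD and 15.2 ± 2.07 in controls (SD, n = 3 each). The ratio did not overlap between the groups, between 23.1 and 32.4 with PDGF-DD and between 13.3 and 17.4 in controls. Acss2, which makes acetyl-CoA from acetate, had 3.85, 4.44 and 4.24 CPM with PDGF-DD, against 5.14, 5.71 and 5.11 CPM in controls (log2 fold change -0.35 ± 0.12 SE; adjusted p = 0.0278). Both calls depended on single libraries: the adjusted p of Acacb was 0.0697 without PDGF-DD replicate 3, and that of Acss2 was 0.124 and 0.0687 without PDGF-DD replicates 1 and 3 and 0.115 without control replicate 2. DESeq2 called neither, at adjusted p = 0.069 and 0.171, and limma on log2(TPM + 1) did not call Acacb (0.0586). Summed over the class, the level was 145 ± 4.06 TPM with PDGF-DD and 135 ± 6.89 TPM in controls (SD, n = 3 each).

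Desaturation and elongation was the class with the most genes lower. Of 8 desaturation and elongation genes, 5 fell, 1 rose and 2 did not pass, and the median log2 fold change was -0.16. Fads1 and Fads2, the front-end desaturases that make polyunsaturated fatty acids, and Fads3, a family member that acts on sphingoid bases, lie side by side on chromosome 19, and all 3 were lower. Fads1 had 139, 145 and 142 CPM in the PDGF-DD libraries and 173, 173 and 179 CPM in the control libraries (log2 fold change -0.30 ± 0.04 SE; adjusted p = 7.32e-07). Fads2 had 102, 111 and 105 CPM with PDGF-DD and 122, 127 and 134 CPM in controls (log2 fold change -0.27 ± 0.04 SE; adjusted p = 3.35e-05). Their groups did not overlap, and the TPM ratio of Fads1 to Fads2 was 1.12 ± 0.02 with PDGF-DD and 1.15 ± 0.04 in controls (SD, n = 3 each). Fads3, the most abundant of all 43 genes at 321 TPM, had 417, 429 and 413 CPM with PDGF-DD, against 479, 486 and 499 CPM in controls (log2 fold change -0.22 ± 0.04 SE; adjusted p = 3.87e-05). The 3 genes shared a direction and a similar size, and they held their calls in all 13 alternative settings tried.

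Of the stearoyl-CoA desaturases, which make monounsaturated chains, Scd2 fell and Scd1 did not pass the test. Scd2 had 173, 166 and 170 CPM with PDGF-DD and 191, 191 and 210 CPM in controls (log2 fold change -0.22 ± 0.04 SE; adjusted p = 0.000157). Scd1 had 137, 124 and 132 CPM with PDGF-DD and 122, 127 and 132 CPM in controls, and these groups overlapped (log2 fold change 0.04 ± 0.04 SE; adjusted p = 0.465). The paralogs share stretches of sequence, 95.5% identical between a Scd2 and a Scd1 transcript over 623 bases and 91.4% between Scd1 and Scd3 over 1053 bases, so that some reads may be split between them. Whether Scd1 and Scd2 differ in their response was not tested.

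Of the 3 elongases among the 43 genes, Elovl6 rose. Elovl6, which lengthens saturated chains such as palmitate made by fatty acid synthase, had 19.2, 17.2 and 20.3 CPM with PDGF-DD and 14.7, 13.5 and 15.2 CPM in controls, without overlap (log2 fold change 0.39 ± 0.08 SE; adjusted p = 0.000251). It had the highest log2 fold change of the 43 genes, from a low level of 6.43 TPM, and its pseudogene Gm11295 matches 805 bases at 97.4% identity. Elovl1, which makes very long saturated chains and was the second most abundant gene of the class at 177 TPM, had 135, 140 and 126 CPM with PDGF-DD and 146, 140 and 146 CPM in controls (log2 fold change -0.11 ± 0.04 SE; adjusted p = 0.0447). That call was lost in 8 of 13 alternative settings, at adjusted p = 0.114 and 0.343 without PDGF-DD replicates 1 and 3 and 0.0751 and 0.116 without control replicates 1 and 3. Elovl5, an elongase of polyunsaturated chains, averaged 63.0 ± 2.56 CPM with PDGF-DD and 63.1 ± 0.85 CPM in controls (SD, n = 3 each; adjusted p = 0.988). The class as a whole summed to 836 ± 9.78 TPM with PDGF-DD and 952 ± 42.98 TPM in controls, the highest sum of the 8 classes.

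**Figure D2:**
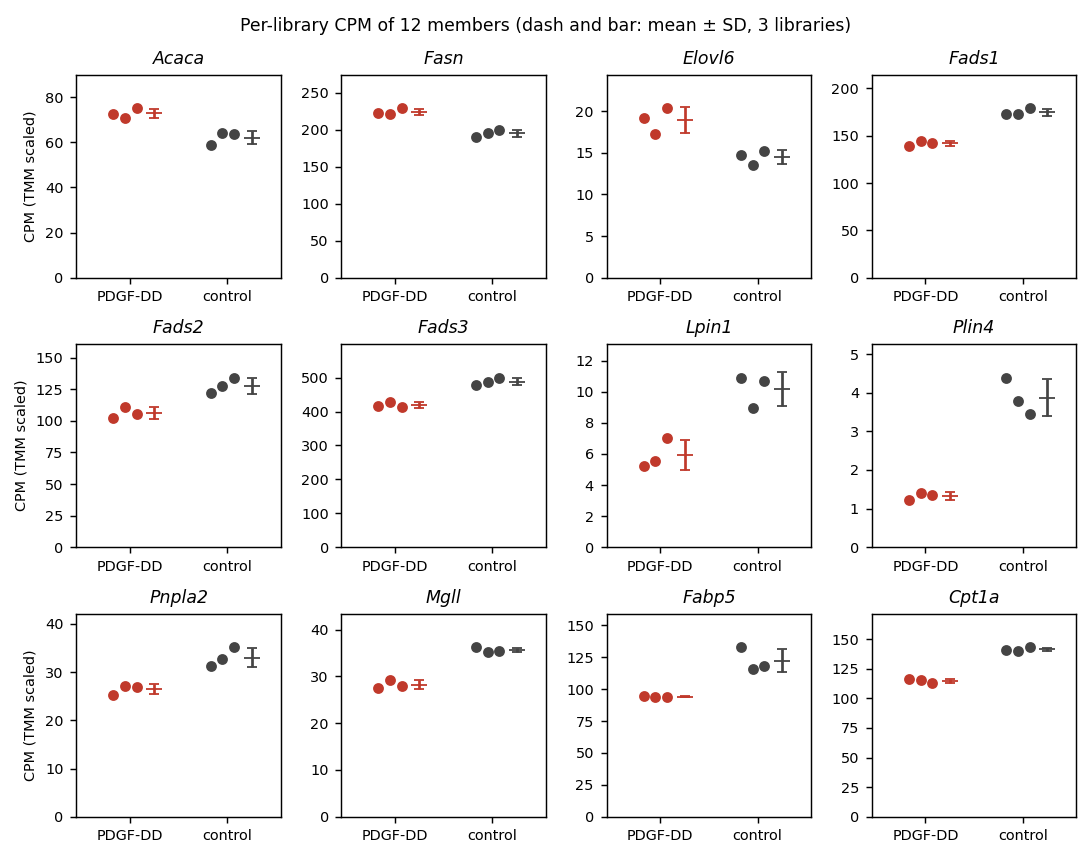
CPM (vertical axes, linear, starting at 0) in each of the 3 PDGF-DD (red) and 3 control (grey) libraries for 12 of the genes that passed the test; each point is a library, and dashes with bars are means ± SD. The 3 PDGF-DD libraries lie above all control libraries for Acaca, Fasn and Elovl6 and below them for the other 9 genes.

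Activation of fatty acids to acyl-CoA showed 1 rise among 4 synthetases, and the class median was 0.05. Acsl4, which prefers arachidonate and related polyunsaturated chains, had 51.6, 45.6 and 51.6 CPM with PDGF-DD and 43.4, 45.7 and 42.4 CPM in controls (log2 fold change 0.18 ± 0.06 SE; adjusted p = 0.0122). PDGF-DD replicate 2 lay inside the control range, and the adjusted p was 0.0629 and 0.0709 without PDGF-DD replicates 1 and 3 and 0.0589 without control replicate 3. With limma on log2(TPM + 1) it was 0.0908. Acsl5, the most abundant synthetase of the 4 at 69.7 TPM, had 87.7, 88.0 and 89.7 CPM with PDGF-DD and 80.9, 87.4 and 80.8 CPM in controls. Its groups did not overlap, yet it passed only without control replicate 2 (adjusted p = 0.111 with all libraries and 0.0432 without that one). Acsl1 and Acsl3 had log2 fold changes of -0.04 and 0.01 and did not pass. Summed levels were 115 ± 3.47 TPM with PDGF-DD and 109 ± 6.31 TPM in controls (SD, n = 3 each).

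Glycerolipid synthesis and storage showed falls in 3 of 8 genes and no rise, with a class median of -0.09. Plin4, a droplet coat protein best known from fat cells, had 1.22, 1.402 and 1.35 CPM in the PDGF-DD libraries and 4.38, 3.78 and 3.45 CPM in the control libraries, 26 to 30 against 73 to 93 counts. The groups were far apart, with Plin4 2.91-fold lower (log2 fold change -1.54 ± 0.18 SE; adjusted p = 1.32e-07), although its mean level was only 0.98 TPM. On the log2(TPM + 1) scale, which compresses low genes, its difference was -0.78. Lpin1, a phosphatidate phosphatase that makes diacylglycerol, had 5.25, 5.51 and 7.04 CPM with PDGF-DD and 10.9, 8.92 and 10.7 CPM in controls. It was 1.71-fold lower and without overlap (log2 fold change -0.78 ± 0.11 SE, adjusted p = 6.53e-06 in edgeR). Its relatives Lpin2 and Lpin3, described below, were more abundant, and neither was called lower. Plin3, a coat protein that exchanges between droplets and cytosol, had 56.5, 66.7 and 58.4 CPM with PDGF-DD and 66.6, 67.6 and 67.1 CPM in controls (log2 fold change -0.15 ± 0.05 SE; adjusted p = 0.0318). Its PDGF-DD replicate 2 overlapped the controls, and its adjusted p was 0.253 and 0.184 without PDGF-DD replicates 1 and 3 and 0.0931 and 0.0704 without control replicates 2 and 3. The call was also lost with DESeq2 (0.0936).

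The droplet coat protein of most cell types, Plin2, was the most abundant gene of the class at 106 TPM. It had 77.6, 89.2 and 76.5 CPM with PDGF-DD and 84.3, 83.8 and 85.5 CPM in controls (adjusted p = 0.394). PDGF-DD replicate 2 was the highest and the other 2 PDGF-DD libraries were the lowest of the 6, and without that library the adjusted p was 0.0449 at a log2 fold change of -0.12. The triglyceride-forming acyltransferases Dgat1 and Dgat2 had log2 fold changes of 0.04 and -0.03, and Agpat2, which acylates lysophosphatidate, had 0.04. Gpam, the mitochondrial glycerol phosphate acyltransferase at the first step, had 26.7, 26.5 and 28.0 CPM with PDGF-DD, all under the 29.6, 29.3 and 29.6 CPM of controls, but did not pass (adjusted p = 0.103). The class summed to 262 ± 12.9 TPM with PDGF-DD and 277 ± 7.37 TPM in controls (SD, n = 3 each).

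All 3 genes of the lipolysis class were lower with PDGF-DD, with a median log2 fold change of -0.34, and none overlapped between the groups. Lpl, a secreted lipase counted here under uptake and binding, was at 134 TPM and did not pass (log2 fold change 0.02, adjusted p = 0.777 in edgeR). The 3 lipases of the class act in sequence, with Pnpla2 (adipose triglyceride lipase) on triglyceride, Lipe (hormone-sensitive lipase) on diacylglycerol and Mgll on monoacylglycerol. Pnpla2 had 25.2, 27.1 and 26.9 CPM in PDGF-DD libraries and 31.2, 32.7 and 35.1 CPM in controls (log2 fold change -0.32 ± 0.06 SE; adjusted p = 0.000177). Mgll had 27.4, 29.3 and 27.9 CPM with PDGF-DD and 36.2, 35.3 and 35.5 CPM in controls (log2 fold change -0.34 ± 0.06 SE; adjusted p = 3.82e-05). Lipe, the scarcest, had 2.72, 2.38 and 2.52 CPM with PDGF-DD and 3.77, 3.87 and 3.97 CPM in controls, 1.52-fold lower (log2 fold change -0.61 ± 0.15 SE; adjusted p = 0.00182). All 3 calls held in all 13 alternative settings. An antisense gene covers 15.6% of the exon bases of Lipe, and whether counting used strand is not known from the labels. Summed over the 3 lipases the level was 43.3 ± 0.85 TPM with PDGF-DD and 55.6 ± 3.30 TPM in controls (SD, n = 3 each).

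Plin4, Lipe and Fabp4 are also genes of fat cells, so adipocyte markers were read beside them. Of 6 adipocyte markers with a row, Adipoq, Cfd and Plin1 stayed under 1 TPM in all libraries. The list summed to 59.6 to 66.2 TPM with PDGF-DD and 68.2 to 69.9 TPM in controls, nearly all of it Fabp4. Without Fabp4 and Lipe the sum was 1.04 to 1.45 TPM with PDGF-DD and 2.23 to 2.69 TPM in controls. That remainder was almost wholly Adrb3, the beta-adrenergic receptor of fat cells, with 1.04, 1.45 and 1.01 TPM with PDGF-DD and 2.25, 2.69 and 2.08 TPM in controls (log2 fold change -0.96; adjusted p = 0.000289). Adipoq, Cfd and Plin1 had 0 or 1 count in each library. The part of this difference in the values of Plin4 and Lipe was not tested.

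Uptake and binding proteins showed 2 falls among 5 genes and a class median of -0.10. Fabp5, a cytosolic fatty acid-binding protein and at 273 TPM the second most abundant of the 43 genes, had 94.99, 93.7 and 94.2 CPM in the PDGF-DD libraries and 133, 116 and 119 CPM in the control libraries. All PDGF-DD libraries lay below all controls (log2 fold change -0.38 ± 0.05 SE; adjusted p = 4.7e-07). Its sequence recurs in 5 processed pseudogenes at 93.6 to 98.3% identity, so its counts are uncertain to that extent. Cd36, the membrane fatty acid translocase, had 35.8, 34.6 and 39.1 CPM with PDGF-DD and 39.6, 42.1 and 42.4 CPM in controls (log2 fold change -0.18 ± 0.06 SE; adjusted p = 0.0134). The call was lost in DESeq2 (adjusted p = 0.0639), without PDGF-DD replicates 1 and 2 (0.0694 and 0.105) and without control replicates 2 and 3 (0.0531 and 0.0556). Lpl, the secreted lipase that frees fatty acids from lipoproteins, had 244, 224 and 241 CPM with PDGF-DD and 233, 232 and 237 CPM in controls (log2 fold change 0.02 ± 0.04 SE; adjusted p = 0.777). Fabp4 and Fabp3, the binding proteins of fat cells and heart muscle, had log2 fold changes of -0.10 and -0.08 and did not pass (adjusted p = 0.278 and 0.594). The class summed to 490 ± 13.0 TPM with PDGF-DD and 573 ± 8.86 TPM in controls (SD, n = 3 each).

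Cd36, Fabp4 and Lpl are also genes of macrophages or endothelium, and Fabp3 of heart muscle. The 10 macrophage markers summed to 411 to 445 TPM with PDGF-DD and 480 to 500 TPM in controls, and none was under 1 TPM in all libraries. Without Lyz2, the only one of the 10 to pass the test, the sums were 146 to 168 TPM with PDGF-DD and 171 to 178 TPM in controls. Endothelial markers summed to 216 to 220 TPM with PDGF-DD and 216 to 240 TPM in controls. Of 10 tested endothelial markers, 1 was higher and 1 was lower. Cardiomyocyte markers summed to 229 to 257 TPM with PDGF-DD and 320 to 344 TPM in controls, of which Tnnt2 gave 217 to 246 TPM with PDGF-DD and 306 to 327 TPM in controls, while Myh7, Ryr2 and Pln stayed under 1 TPM. Without Tnnt2 the cardiomyocyte sums overlapped, at 11.3 to 14.2 TPM with PDGF-DD and 13.8 to 20.5 TPM in controls. Still, 3 of 7 tested cardiomyocyte markers were lower and 0 higher. Besides Tnnt2 these were Myh6 (log2 fold change -0.71; adjusted p = 7.85e-05 in edgeR) and Ryr2 (-0.79; 0.0485), the latter on 9 to 19 counts per library. Pericyte and smooth muscle markers summed to 113 to 120 TPM with PDGF-DD and 150 to 168 TPM in controls. Of 7 tested markers, 4 were lower and 1 was higher, with a median log2 fold change of -0.44. The values ran from -1.02 for Myh11 (adjusted p = 3.79e-10 in edgeR) to 0.24 for Cspg4 (7.06e-05), both named after their values were seen. The sums of macrophage and of pericyte and smooth muscle markers thus lay below those of controls in every PDGF-DD library, as did that of cardiomyocyte markers with Tnnt2 included. The sums of fibroblast and of adipocyte markers, given above, also lay below those of controls in every PDGF-DD library, while the endothelial sums overlapped. The part of these cell types in the differences of Cd36, Fabp5 and the other members was not tested.

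Of the 7 beta-oxidation genes 1 fell, Cpt1a, and 6 did not pass, with a class median of -0.09. Cpt1a encodes the carnitine palmitoyltransferase of the outer mitochondrial membrane, the step that malonyl-CoA inhibits. It had 116, 115 and 113 CPM in the PDGF-DD libraries and 141, 140 and 143 CPM in the control libraries, with little spread in either group (log2 fold change -0.30 ± 0.04 SE; adjusted p = 1.02e-06). The other 6 genes had log2 fold changes between -0.15 and -0.01, and whether Cpt1a differs from them was not tested. Cpt2, the partner enzyme of the inner membrane, came closest with 25.2, 27.1 and 24.6 CPM with PDGF-DD and 28.6, 28.0 and 28.9 CPM in controls (adjusted p = 0.056), and it passed without PDGF-DD replicate 2 (adjusted p = 0.0333) and with upper-quartile scaling (0.0312). Acadl and Acadm, dehydrogenases of long and medium chains, also had every PDGF-DD library below every control library (adjusted p = 0.0635 and 0.206). Upper-quartile scaling passed Acadl at 0.0325, so that the class then had 3 genes lower.

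The trifunctional enzyme that completes the cycle on long chains is built from Hadha and Hadhb, neighbours transcribed in opposite directions on chromosome 5 from start sites 273 bases apart. Hadha, at 127 TPM the most abundant gene of the class, had 147, 152 and 145 CPM with PDGF-DD and 148, 151 and 148 CPM in controls. Hadhb had 74.5, 76.4 and 74.9 CPM with PDGF-DD and 75.5, 77.9 and 75.0 CPM in controls. The 95% intervals of the log2 fold change ran between -0.089 and 0.071 for Hadha and between -0.106 and 0.074 for Hadhb, and the TPM ratio of the subunits was 1.47 ± 0.02 with PDGF-DD and 1.46 ± 0.01 in controls (SD, n = 3 each). Pseudogene Gm13910 matches 1428 bases of Hadhb at 99.8% identity. Acadvl, the dehydrogenase of very long chains, had a log2 fold change of -0.02, but Dvl2 on the opposite strand overlaps 42.9% of its exon bases, which makes its count uncertain. The class summed to 457 ± 6.43 TPM with PDGF-DD and 489 ± 13.3 TPM in controls (SD, n = 3 each).

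The PPAR receptors, nuclear receptors that bind fatty acids, did not pass, and their class summed to 39.2 ± 1.24 TPM with PDGF-DD and 41.0 ± 2.09 TPM in controls. Ppard, the most abundant at 34.6 TPM, had 47.2, 45.7 and 48.0 CPM with PDGF-DD and 49.2, 47.7 and 51.3 CPM in controls (log2 fold change -0.07 ± 0.05 SE; adjusted p = 0.261). Pparg, the receptor of fat cell formation, had 4.17, 4.44 and 4.38 CPM with PDGF-DD and 3.35, 5.00 and 3.97 CPM in controls (adjusted p = 0.712). It had 71 to 106 counts per library, and the 95% interval of its log2 fold change ran between -0.22 and 0.37. Ppara, the receptor best known for driving oxidation genes in liver and heart, had 18 to 31 counts per library and 0.46 TPM. The 95% interval of its log2 fold change ran between -0.46 and 0.58. Whether Ppara changed within that interval cannot be told at this depth.

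On the TPM scale the 43 genes ran from 0.46 for Ppara to 321 for Fads3, with a median of 42.7 TPM, and 7 genes were over 100 TPM. After Fads3 and Fabp5 came Elovl1 at 177 TPM, Lpl at 134 TPM and Hadha at 127 TPM. Plin2 and Fads1 followed at 106 TPM each. The differences of at least 1.5-fold, in Plin4, Lpin1 and Lipe, stood at 0.98, 3.49 and 2.58 TPM. The median size of the log2 fold change over the 20 genes that passed was 0.30. Of the 23 genes that did not pass, 19 were above 10 TPM, and the bounds of their 95% intervals lay between -0.30 and 0.19 on the log2 scale. Besides the copies and overlaps named above, Fabp3, Acadm and Plin2 have pseudogenes with 99.3%, 93.5% and 90.1% identity over 402, 681 and 416 bases. Genes on the opposite strand cover 9.91% of the exon bases of Acsl1 (Gm45244), 9.84% and 9.72% of those of Fabp3 (Zcchc17 and Gm10570) and 8.31% of those of Acsl5 (Zdhhc6). Utp14b overlaps 5.6% of the exon bases of Acsl3 on the same strand and matches 221 bases at 98.2% identity. Smaller overlaps and less similar copies are not listed. An exact permutation test of single values cannot go below p = 0.1 with 3 against 3 libraries, and the 23 genes without overlap all reached that value, so calls rest on the model fitted across all genes.

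**Figure D3:**
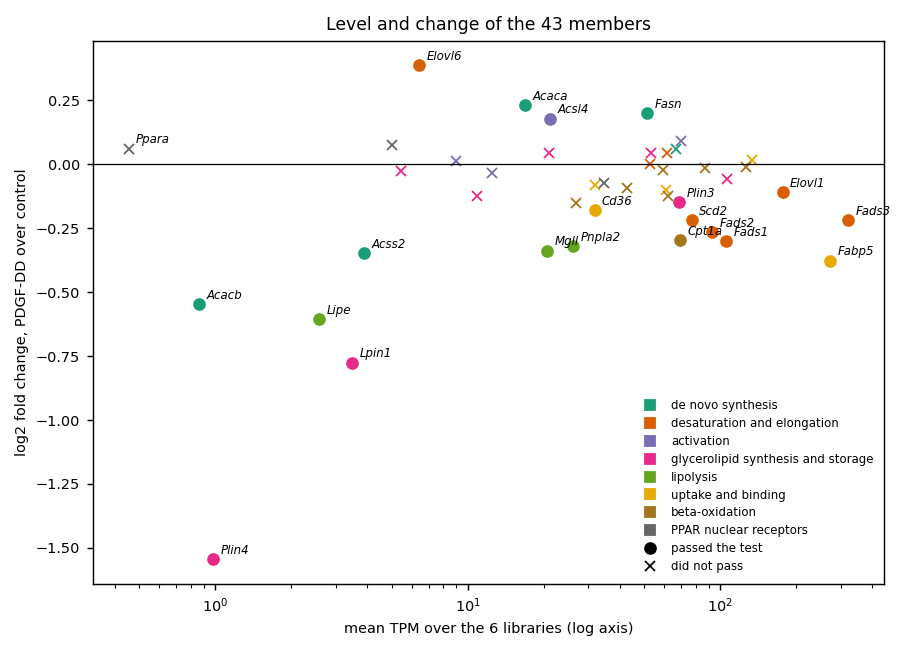
Log2 fold change of PDGF-DD over control (vertical axis) against mean TPM of the 6 libraries (horizontal axis, log scale) for the 43 genes, coloured by role, with circles for genes that passed the test and crosses for the others. Fads3 and Fabp5 combine the highest levels with falls of 0.22 and 0.38 on the log2 scale, and Plin4 the largest fall with a level of 0.98 TPM.

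The other genes of synthesis, desaturation and elongation, a list of 23 of which 16 were tested, showed 4 rises and 2 falls, with a median of -0.05. Counts of this and the following lists stand beside 36.5% of all tested genes that passed, 19.1% higher and 17.4% lower. Hsd17b12 and Hacd3, a reductase and a dehydratase of the elongation cycle, rose to 138 ± 2.38 and 41.7 ± 0.10 CPM with PDGF-DD, against 114 ± 4.33 and 35.2 ± 0.51 CPM in controls (SD, n = 3 each; adjusted p = 8.09e-06 and 0.000462 in edgeR). Mcat, which loads malonyl units in mitochondrial synthesis, rose to 14.7 ± 0.89 CPM, against 11.7 ± 0.96 CPM in controls (log2 fold change 0.33; adjusted p = 0.00249). Fads6, a desaturase family member, fell to 28.3 ± 0.84 CPM with PDGF-DD, against 45.3 ± 1.72 CPM in controls (log2 fold change -0.68; adjusted p = 3.79e-10). Degs1, the ceramide-forming desaturase and the most abundant gene of the list at 359 TPM, did not pass (log2 fold change 0.04; adjusted p = 0.457). Without control replicate 2, 1 gene of the list was lower in place of 2. Elovl4, also among the 4 rises (log2 fold change 0.27, adjusted p = 0.0426 in edgeR), lost its call in most alternatives. Among these were DESeq2 (0.208), limma (0.0669) and every fit with a library left out.

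Of the other acyl-CoA and glycerolipid genes, 20 of 30 were tested, with 6 higher, 2 lower and a median of 0.06. Lpin3, a relative of Lpin1, moved the other way from it, with 33.5 ± 0.92 CPM with PDGF-DD and 27.0 ± 0.89 CPM in controls (SD, n = 3 each; log2 fold change 0.31; adjusted p = 0.000136). The level of Lpin3 was 20.7 TPM, against 3.49 TPM for Lpin1. Lpin2, at 9.83 TPM, did not pass (log2 fold change -0.03, adjusted p = 0.8 in edgeR). Agpat4, an acyltransferase, and Soat1, which esterifies cholesterol, rose by 0.23 each on the log2 scale (adjusted p = 0.00126 and 0.00151). Acsf2, an acyl-CoA synthetase, had 14.0 ± 0.79 CPM with PDGF-DD and 19.1 ± 1.21 CPM in controls (log2 fold change -0.45; adjusted p = 2.69e-05). Dbi, the acyl-CoA-binding protein and the most abundant gene of the list at 387 TPM, did not pass (86.3 ± 2.04 CPM with PDGF-DD and 97.1 ± 18.0 CPM in controls; adjusted p = 0.451). The count of 2 lower genes was 1 without PDGF-DD replicate 1 or 3 or control replicate 3.

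Among 10 tested lipolysis genes and lipase regulators of a list of 11, 1 rose and 4 fell, with a median of -0.08. Angptl4, a secreted inhibitor of Lpl, had 76.4, 73.9 and 82.0 CPM in the PDGF-DD libraries and 36.2, 31.7 and 35.9 CPM in the control libraries (log2 fold change 1.16; adjusted p = 3.09e-14). G0s2, an inhibitor of adipose triglyceride lipase, had 19.5, 20.8 and 19.3 CPM with PDGF-DD and 37.7, 34.2 and 34.7 CPM in controls (log2 fold change -0.84; adjusted p = 1.04e-10). Neither pair of groups came near overlapping. Abhd5, the activator of the same lipase, had 45.3 ± 1.11 CPM with PDGF-DD and 50.3 ± 0.36 CPM in controls (SD, n = 3 each; adjusted p = 0.0145), a call lost with DESeq2 (0.0726) and without PDGF-DD replicate 1 (0.0654) or 3 (0.0869). Pnpla8, a phospholipase, fell by 0.28 on the log2 scale (adjusted p = 0.000144). Lipa, the lysosomal acid lipase and the most abundant of the list at 105 TPM, fell by 0.12 (adjusted p = 0.0299). Its log2 fold change stayed negative, but its call was lost, with DESeq2 (0.0737), with limma (0.0905), with the replicate block (0.0707), without PDGF-DD replicate 1 (0.12) or 3 (0.142) and without control replicate 2 (0.16) or 3 (0.0738). Without PDGF-DD replicate 1 or 3 the list held 2 lower genes in place of 4.

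Of 24 tested beta-oxidation genes outside the 43, 1 rose and 5 fell, with a median of -0.11. Over all tested genes 19.1% were higher and 17.4% lower. Acox3, a peroxisomal oxidase, fell to 13.5 ± 1.10 CPM with PDGF-DD, against 18.4 ± 0.76 CPM in controls (SD, n = 3 each; log2 fold change -0.45; adjusted p = 3.56e-05 in edgeR). Crat, the carnitine acetyltransferase, fell by 0.31 on the log2 scale (adjusted p = 4.43e-05) and Acadsb, a dehydrogenase of short branched chains, by 0.20 (adjusted p = 0.00297). Etfb, a subunit of the electron transfer flavoprotein and the most abundant gene of the list at 136 TPM, did not pass (log2 fold change -0.06; adjusted p = 0.529). Without control replicate 1 the list held 2 higher genes in place of 1. Acad11, also among the 5 falls (log2 fold change -0.18, adjusted p = 0.0476 in edgeR), lost its call in most alternatives. Among these were DESeq2 (0.19), limma (0.0861) and the replicate block (0.0743). Of 10 tested acyl-CoA thioesterases, which release free fatty acids from acyl-CoA, Acot7 rose to 152 ± 5.38 CPM with PDGF-DD, against 126 ± 5.98 CPM in controls (adjusted p = 1.58e-05), and it was also the most abundant at 236 TPM. Acot2 and Acot11 fell by 0.22 and 0.21 on the log2 scale (adjusted p = 0.00717 and 0.0269). The call of Acot2 was lost without control replicate 2 (0.0691), and that of Acot11 without PDGF-DD replicate 1 (0.104) or 3 (0.18) or control replicate 1 (0.0911) or 3 (0.07). Acot11 also lost its call with DESeq2 (0.126) and with limma (0.0802).

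Regulators of fatty acid genes numbered 29, of which 26 were tested, with 5 higher, 9 lower and a median of -0.08. Srebf2, the SREBP factor best known for sterol genes, had 85.9, 84.5 and 82.7 CPM in the PDGF-DD libraries and 120, 126 and 133 CPM in the control libraries (log2 fold change -0.58; adjusted p = 1.08e-10). Insig1, which holds SREBP precursors in the endoplasmic reticulum, had 25.9, 27.8 and 27.4 CPM with PDGF-DD and 42.6, 40.7 and 40.9 CPM in controls (log2 fold change -0.62; adjusted p = 2.82e-09). Neither overlapped between the groups. Srebf1, the SREBP gene best known for fatty acid synthesis, which was chosen after its value was seen, had 78.8 ± 2.57 CPM with PDGF-DD and 82.4 ± 3.09 CPM in controls (SD, n = 3 each; adjusted p = 0.282). Pprc1, a coactivator related to PGC-1, rose by 0.20 on the log2 scale (adjusted p = 0.000224), and Ncor1, a corepressor of nuclear receptors, fell by 0.18 (adjusted p = 0.00111). Cebpb, the most abundant of the list at 144 TPM, fell by 0.16 (adjusted p = 0.0211). Its call was lost with limma (0.0547), without PDGF-DD replicate 1 (0.0967) or 3 (0.0932) and without control replicate 3 (0.187), with a log2 fold change that stayed negative. The lower count was 5 in place of 9 without control replicate 3, and the higher count was 3 without PDGF-DD replicate 2 or 3 and 2 without control replicate 2. Ppargc1a and Mlxipl were too low to be tested.

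Known targets of the PPAR receptors, 18 tested of a list of 23 and 7 of them among the 43 genes, gave 1 higher and 8 lower with a median of -0.21. Angptl4 was the higher one and thus moved against the others that passed. Cpt1a, described above, was among the lower ones, and Cat, the peroxisomal catalase, had 64.7 ± 1.74 CPM with PDGF-DD and 76.5 ± 4.78 CPM in controls (SD, n = 3 each; log2 fold change -0.24; adjusted p = 0.00032). The lower count was 5 without PDGF-DD replicate 3 and without control replicate 2 or 3. Plin2 was the most abundant of these targets and did not pass.

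**Figure D4:**
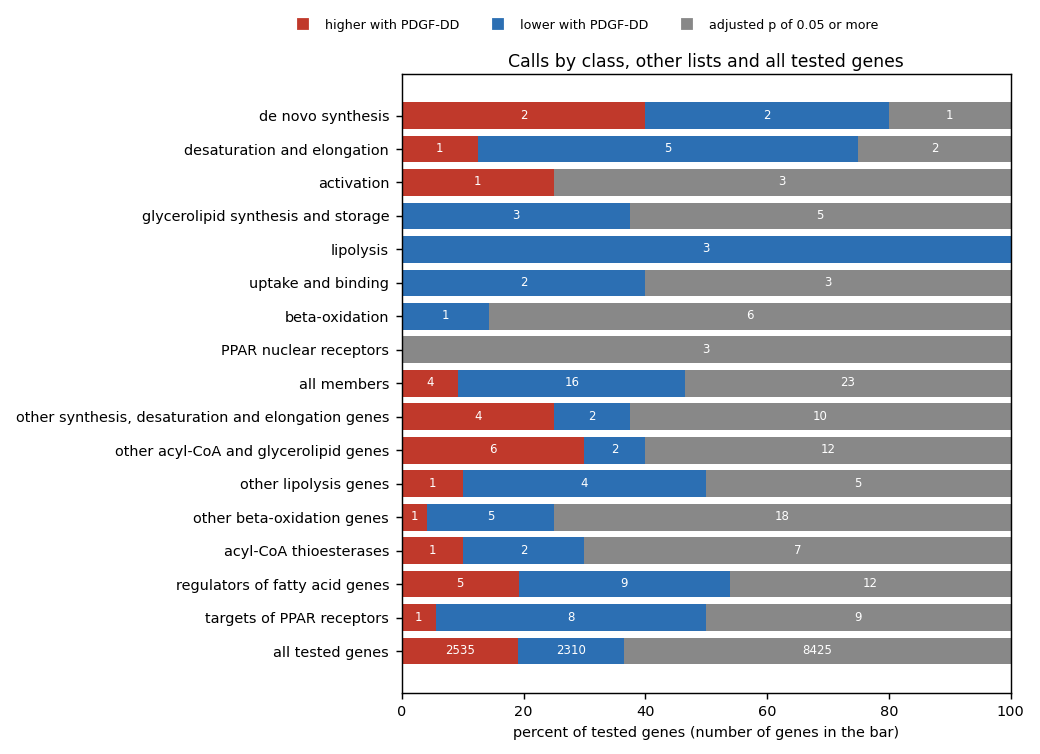
Share of tested genes (horizontal axis, percent, starting at 0) that were higher (red), lower (blue) or did not pass (grey) with PDGF-DD, for the 8 role classes, all 43 genes, 7 lists of other pathway, regulator and target genes, and all 13270 tested genes; numbers in the bars are genes. All 3 genes of the lipolysis class were lower and no beta-oxidation gene of the 43 was higher. All tested genes divided into 2535 higher, 2310 lower and 8425 that did not pass.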

How the data were processed

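Messenger RNA of 6 libraries, 3 from cells given PDGF-DD and 3 from cells given saline, was captured on oligo(dT) beads, per the labels' protocols, and read on a nanoball sequencer. Per the submitters' processing notes, which give no roles, the tools were RSEM 1.2.12, HISAT2 2.0.4, DESeq2 1.4.5 and Bowtie2 2.2.5. The build was mm9, with the annotation and strandedness of the counting not given in the sources used here. The authors deposited an estimated count per gene and library, not normalized, of which 31.9% to 32.6% were not whole, and TPM values scaled by the authors per transcript length and library, per the file headers.

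Estimated counts were rounded to whole numbers, filtered with filterByExpr defaults and scaled with TMM factors (between 0.995 and 1.01). Groups were compared with the two-sided robust quasi-likelihood F test of edgeR 4.0.16 in R 4.3.3, adjusted over all 13270 tested genes and called under 0.05. The standard error is the log2 fold change divided by the square root of F. Genes were compared with each other on TPM only. Promoter windows came from RefSeq on GRCm38.p6, another build than that of the files, and were matched by symbol. Overlaps and near copies (at least 200 aligned bases at 90% identity or more) came from GENCODE M21.

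The 43 genes and all lists were chosen with earlier results of these data known. All 43 are reported; from each other list the most abundant gene and at most 4 called genes, those of smallest p, are named, except for a gene that counts in the tests but is not reported here by name. Beyond these, Elovl4 and Acad11 are named for calls lost in most alternatives, and Lpin2 as a relative of Lpin1, all chosen after their values were seen. DESeq2 1.42.0, limma 3.58.1 on log2(TPM + 1), other scalings, no filter, a replicate block and leaving out each library were tried as alternatives. Intervals and spreads cover these libraries only.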

Additional observations from a re-analysis of the deposited data

How the results depend on the processing

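Across 13 alternatives no member changed direction while passing the test, and 14 of the 20 called members and 19 of the 23 others kept their side of the threshold in all of them. The counts of 4 higher and 16 lower members were 4 and 16 with relative log expression factors and without the low-count filter (17510 genes tested), 4 and 18 with upper-quartile factors, 4 and 15 with total count scaling, 4 and 11 with DESeq2 and 3 and 14 with limma on log2(TPM + 1). The fit with the replicate block gave 4 and 15 and lost only Elovl1 among members. Same-numbered libraries did not deviate together (correlations -0.0661, -0.0911 and -0.0257), and differently numbered ones had correlations between -0.0233 and 0.0816. With 3 libraries in each group these values cannot show whether a number marks a shared culture or day, which the labels do not state. Leaving out each library gave 3 to 5 higher and 12 to 17 lower members. Without control replicate 1, which stood apart, they were 4 and 15. Lower de novo synthesis genes were 0 with DESeq2, 1 with limma and 0 to 2 with a library left out, higher activation genes 0 with limma and 0 to 2, lower uptake genes 1 with DESeq2 and 1 to 2, and lower beta-oxidation genes 3 with upper-quartile factors and 1 to 2. In the other lists, with libraries left out, lower synthesis and elongation genes were 1 to 3. Lower acyl-CoA and glycerolipid genes were 1 with DESeq2, 1 with the replicate block and 1 to 3. Lower lipolysis genes were 2 with DESeq2 and 2 to 4. Beta-oxidation genes were 1 to 2 higher, and 8 lower with upper-quartile factors. Lower thioesterases were 1 with DESeq2, 1 with limma and 1 to 2. Regulators higher were 3 with DESeq2, 3 with the replicate block and 2 to 5, and lower 5 to 11. Lower PPAR targets were 4 with DESeq2 and 5 to 7. The cause of these shifts was not tested. No scaling moved the median of all genes by over 0.1 on the log2 scale. Low counts limit Ppara, Plin4, Lipe, Acacb, Pparg and Acss2 most.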
